A study of Homo sapiens with 4 samples.

Results

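The genes that license origins of DNA replication and build the replication fork were read in a human renal carcinoma line, 786-0, after amino acid starvation. The 50 genes were taken by symbol from a table of 57820 genes, and all 50 were found in it. Each had a mean of at least 1 TPM (transcript abundance per length, scaled to the same total in every library) over the 4 libraries and so passed the filter on low values, which 12524 genes passed. The libraries were 2 from cells carrying a short hairpin against GLUD1 (shGLUD1), the mitochondrial glutamate dehydrogenase, and 2 from cells carrying a non-targeting hairpin (shNT). All cells were kept in DMEM with serum and all were starved of amino acids for 12 h before RNA was taken, so fed cells are not part of the comparison. The labels give neither the hairpin sequence nor the number of constructs. They also do not say that replicates came from separate cultures, so p-values below rest on a library-to-library spread that may be technical. In bulk RNA, more cells in S phase and more transcript per cell cannot be told apart.

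Replication starts at origins bound by the origin recognition complex (ORC). In G1, CDC6 and CDT1 help ORC load a double ring of MCM2 to MCM7 onto DNA, a step called licensing. The kinases CDC7 and CDK then recruit CDC45 and GINS to turn the ring into a moving helicase. Behind it, polymerase alpha with primase lays down primers. Polymerases delta and epsilon, held to DNA by the ring-shaped clamp PCNA, copy the strands. Many of these genes are transcribed under E2F factors as cells pass from G1 into S phase, and their transcripts are widely used as a mark of proliferating cells.

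GLUD1 itself stood at 13.5 and 19.8 TPM in the shGLUD1 libraries, against 18.1 and 17.4 TPM in the shNT libraries, so replicate 2 of the libraries labelled shGLUD1 lay above both shNT libraries (log2 fold change -0.11, limma adjusted p = 0.631). Below, shGLUD1 means the libraries labelled so, and every direction is drawn from that label. The TPM of most genes were higher in these libraries, with a median log2 fold change of 0.63 over all genes tested. Each member's value is therefore also given rescaled, that is, after dividing each library by its median ratio to the mean library, which sets the median gene to no change. On that scale GLUD1 was lower (-0.83, limma adjusted p = 0.00233). Fold changes are differences of log2(TPM + 1), which understate the change of low genes. Of the markers of the line, VIM reached 2902 and 3756 TPM in the shGLUD1 libraries, against 931 and 891 TPM in the shNT libraries, and PAX8, EPAS1, CA9, CA12 and KRT8 were between 2.42 and 72.4 TPM in all libraries. NDUFA4L2 was between 2.29 and 2.86 TPM, KRT18 was at most 1.87 TPM, and PAX2 and CDH6 were at or near 0. Of the 8 markers of the line that passed the filter, 5 were called higher and 1, KRT18, lower on TPM. After rescaling 4 were higher and 3 lower. Over all genes tested 56.7% were higher and 7.77% lower on TPM, and 23.2% and 27.9% after rescaling. Summed markers of leukocytes, endothelium and proximal tubule were at most 0.43 TPM in any library. Those of fibroblasts were 8.2 and 9.67 TPM in the shGLUD1 libraries, against 3.91 and 3.12 TPM in the shNT libraries. Of the 4, only COL1A1 and PDGFRB passed the filter on low values. Both were called higher on TPM, as were 56.7% of all genes tested, and neither after rescaling. COL3A1 was at most 0.03 TPM. DCN was at 0.78 and 0.93 TPM in the shGLUD1 libraries, against 0.04 and 0.16 TPM in the shNT libraries. The part of all these markers in the results was not tested.

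Replication transcripts were higher in the shGLUD1 libraries. All 50 members had both shGLUD1 values above both shNT values, against 69.9% of all genes tested. Of the 50, 42 were called higher (84%) and none lower at a limma adjusted p under 0.05, where 56.7% of all genes tested were called higher and 7.77% lower. A rise of at least 2-fold was called for 34 members, against 29.5% of all genes tested. The members' median log2 fold change was 1.23, against 0.63 over all genes, and ranged from 0.10 (RPA3) to 2.23 (RPA1). After rescaling, 32 members were higher (64%) and 4 lower, where 23.2% of all genes tested were higher and 27.9% lower, and the members' median was 0.59. Of these 32 calls, 20 remained with any library left out. The others, lost in at least 1 such fit, were ORC2, CDC6, CDT1, GMNN, MCM2, MCM7, MCM10, GINS2, POLA2, POLD3, POLE3 and TIPIN. Without shGLUD1 replicate 2, fewer members were higher after rescaling than with all libraries, and so were fewer of all genes tested. On rescaled TPM 38 members had both shGLUD1 values above both shNT values and 8 had both below, against 39.0% and 39.2% of all genes tested. Summed over the 50 genes, the level was 1403 and 1590.0 TPM in the shGLUD1 libraries, against 811 and 776 TPM in the shNT libraries.

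**Figure D1:**
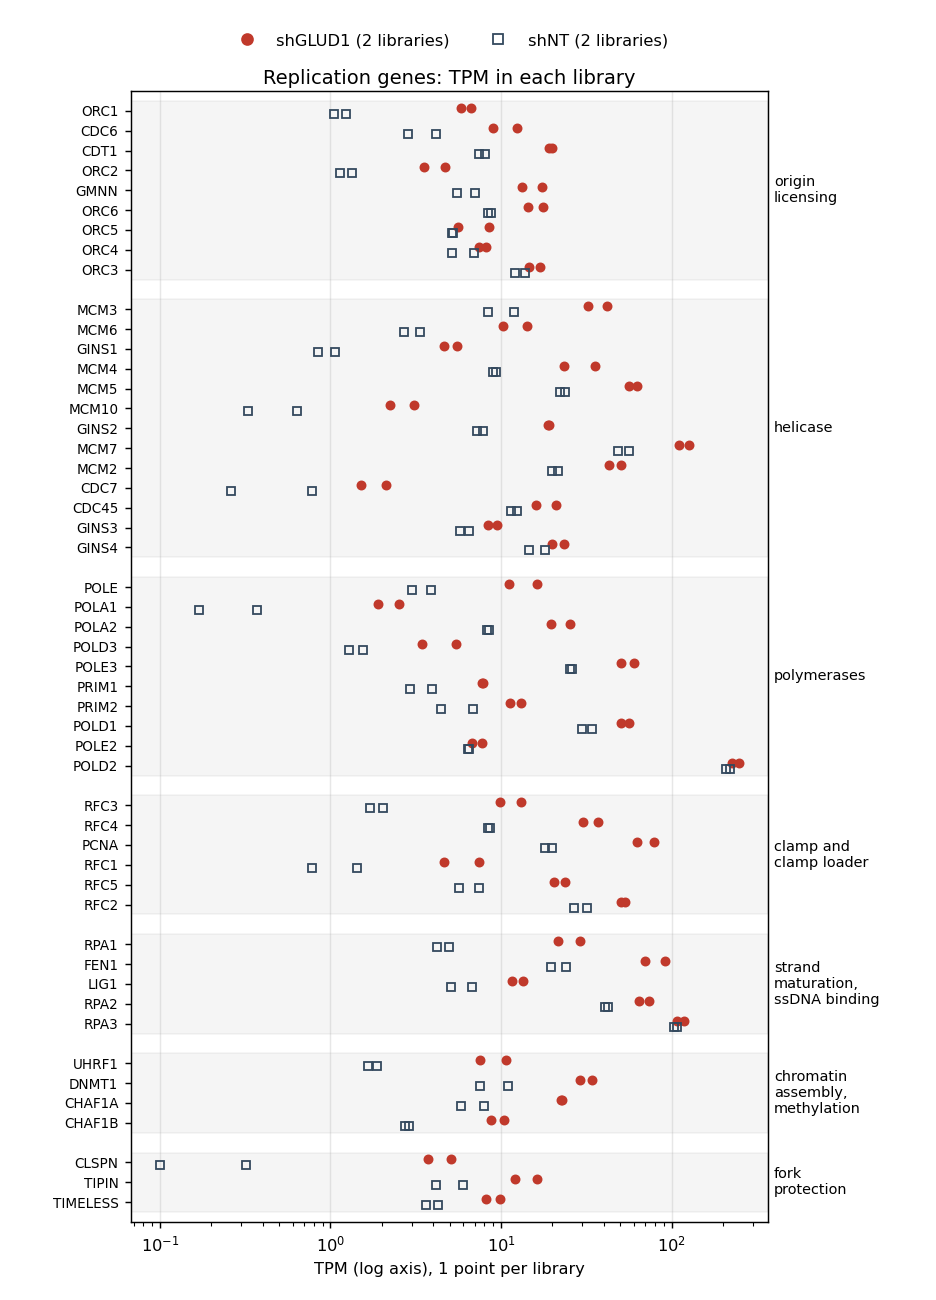
TPM of the 50 replication genes in each library, on a log axis, ordered within each role by log2 fold change; filled circles are the 2 shGLUD1 libraries and open squares the 2 shNT libraries. In every gene both shGLUD1 points lie to the right of both shNT points, by a wide gap in CLSPN and RFC3 and by a narrow one in RPA3, POLD2 and POLE2.

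**Figure D2:**
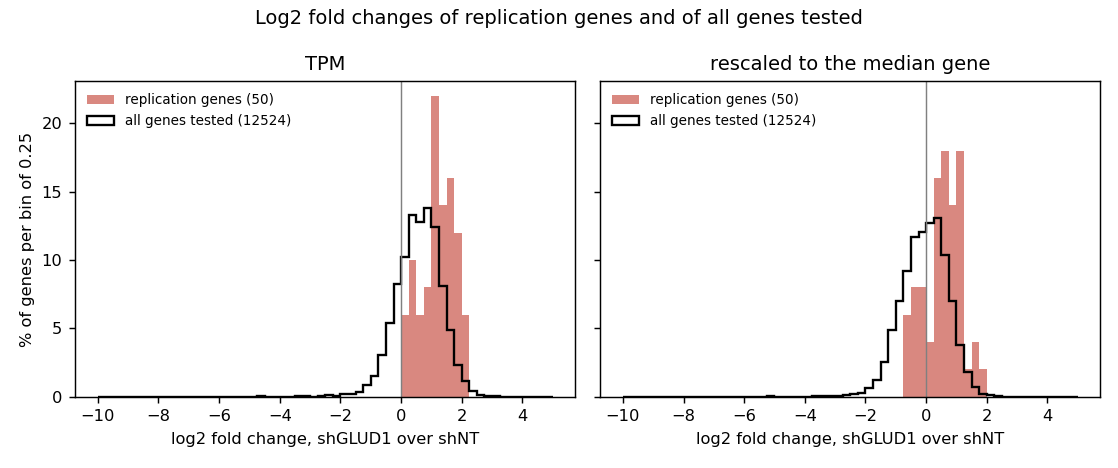
Distribution of log2 fold changes (shGLUD1 over shNT) of the 50 replication genes (filled) and of all 12524 genes tested (outline), as a percentage of each set per bin of 0.25, on TPM (left) and after rescaling to the median gene (right). The replication genes sit to the right of the outline on both scales, with medians of 1.23 on TPM and 0.59 rescaled.

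The promoters of the members were searched for sequence motifs. RefSeq promoters (GRCh38.p14, 250 bases before to 50 bases from the annotated start) were matched by symbol for 44 of the 50 genes. An E2F-type motif, spelled TTTCCCGC, TTTGGCGC, TTTCGCGC or TTTGCCGC and read on both strands, was present in 23 of the 44 genes (52.3%), against 3.99% of the 27305 genes with a promoter in the same table. With TTTCCCGC and TTTGGCGC only, the counts were 20 genes (45.5%) and 2.75%. The 27305 genes were not matched to the members for expression or GC content. A CCAAT box (CCAAT, both strands) was present in 26 genes (59.1%), against 39.7%, and the CHR element TTTGAA, which is known from genes of mitosis, in 1 gene (2.27%), against 18.2%. Matches on the 2 strands can overlap each other. Below are the 160 bases before the annotated start of genes from different steps of replication, 5′ to 3′ on the gene's own strand, with E2F-type matches in capitals. RFC3 and PCNA load and form the clamp, MCM6 is a helicase subunit, CDT1 a licensing factor and POLE a polymerase, and all of these rose. ORC3 is shown because it carries a match and did not pass the test.
RFC3: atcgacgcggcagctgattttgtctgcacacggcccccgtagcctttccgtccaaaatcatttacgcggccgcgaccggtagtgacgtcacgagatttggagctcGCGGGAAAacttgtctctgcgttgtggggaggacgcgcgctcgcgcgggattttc
PCNA: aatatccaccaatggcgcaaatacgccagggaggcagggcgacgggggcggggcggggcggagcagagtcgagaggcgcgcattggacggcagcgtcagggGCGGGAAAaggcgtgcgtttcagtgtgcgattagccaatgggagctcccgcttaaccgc
MCM6: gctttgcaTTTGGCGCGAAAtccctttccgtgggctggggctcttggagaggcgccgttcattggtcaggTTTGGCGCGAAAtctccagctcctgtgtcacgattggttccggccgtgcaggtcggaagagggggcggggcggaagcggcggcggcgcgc
CDT1: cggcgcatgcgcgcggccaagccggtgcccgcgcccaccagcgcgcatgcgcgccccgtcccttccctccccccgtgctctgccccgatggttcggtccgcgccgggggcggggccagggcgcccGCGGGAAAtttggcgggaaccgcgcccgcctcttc
POLE: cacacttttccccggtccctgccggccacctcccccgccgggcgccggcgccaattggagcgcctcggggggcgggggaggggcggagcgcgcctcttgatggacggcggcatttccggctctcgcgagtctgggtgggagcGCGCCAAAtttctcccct
ORC3: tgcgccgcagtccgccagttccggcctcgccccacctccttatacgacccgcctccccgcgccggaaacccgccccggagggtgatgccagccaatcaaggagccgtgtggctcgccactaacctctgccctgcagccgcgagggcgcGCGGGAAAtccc
These windows lie at the following places in GRCh38.p14. They are RFC3 at chr13:33817989-33818148 (+ strand), PCNA at chr20:5126623-5126782 (- strand), MCM6 at chr2:135876444-135876603 (- strand), CDT1 at chr16:88803629-88803788 (+ strand), POLE at chr12:132687343-132687502 (- strand) and ORC3 at chr6:87589975-87590134 (+ strand).

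RFC3, PCNA, CDT1, POLE and ORC3 each hold 1 match in these windows, and MCM6 holds 4, which form a pair of runs because matches on opposite strands overlap. Members were called higher with and without a match, where 56.7% of all genes tested were called higher on TPM and 23.2% after rescaling. Among the 23 genes with a match, 20 were called higher and 18 were higher after rescaling, with a median log2 fold change of 1.33 (rescaled 0.65). Among the 21 without, 18 were called higher and 11 after rescaling, with a median of 1.07 (rescaled 0.38). The ranges of log2 fold changes overlapped almost fully, from 0.14 to 2.16 with a match and from 0.13 to 2.23 without. The genes with a match that did not pass were ORC3, GINS3 and POLE2. RPA1, with the largest log2 fold change of all members on log2(TPM + 1), had no match in its window. A match is a description of these letters and not a bound site, and the starts used by these cells were not measured.

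The calls among licensing genes divided within ORC. Of the 9 licensing genes 6 rose, none fell and 3 did not pass (rescaled, 5 higher and 1 lower), where 56.7% of all genes tested were called higher. In ORC itself 3 of 6 genes rose, a share no higher than that of all genes. The 9 genes had a median log2 fold change of 1.16. ORC1 (chromosome 1, 52372829 to 52404459, minus strand, in hg38), the ATPase subunit whose abundance varies through the cell cycle, was at 5.83 and 6.65 TPM in the shGLUD1 libraries, against 1.05 and 1.23 TPM in the shNT libraries (log2 fold change 1.76, SE 0.24, limma adjusted p = 0.000126, rescaled 1.22). Both shGLUD1 libraries lay well above both shNT libraries. CDC6, the ATPase that joins ORC to load the helicase, was at 9 and 12.5 TPM in the shGLUD1 libraries, against 4.15 and 2.85 TPM in the shNT libraries (log2 fold change 1.38, SE 0.24, limma adjusted p = 0.000635, rescaled 0.73). CDT1, its partner in loading, was at 19.9 and 19.1 TPM in the shGLUD1 libraries, against 7.46 and 8.04 TPM in the shNT libraries (log2 fold change 1.23, SE 0.17, limma adjusted p = 0.000154, rescaled 0.53). GMNN encodes geminin, the inhibitor that binds CDT1 and prevents a second round of licensing. It rose beside its target, to 13.2 and 17.3 TPM in the shGLUD1 libraries, against 7.06 and 5.53 TPM in the shNT libraries (log2 fold change 1.16, rescaled 0.47). The ratio of CDT1 to GMNN overlapped between groups, at 1.51 and 1.1 in the shGLUD1 libraries, against 1.06 and 1.45 in the shNT libraries. ORC2, a core subunit, was at 3.52 and 4.68 TPM in the shGLUD1 libraries, against 1.13 and 1.34 TPM in the shNT libraries (log2 fold change 1.18, rescaled 0.66). ORC6, the smallest subunit, was at 14.4 and 17.5 TPM in the shGLUD1 libraries, against 8.44 and 8.71 TPM in the shNT libraries (log2 fold change 0.82, rescaled 0.12), and did not pass after rescaling.

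ORC3, ORC4 and ORC5, the remaining core subunits, did not pass. ORC3 was at 14.6 and 16.9 TPM in the shGLUD1 libraries, against 13.9 and 12.1 TPM in the shNT libraries (log2 fold change 0.26, 95% interval -0.12 to 0.64, limma adjusted p = 0.209). ORC4 was at 7.39 and 8.16 TPM in the shGLUD1 libraries, against 5.16 and 6.96 TPM in the shNT libraries (log2 fold change 0.32, 95% interval -0.16 to 0.80, limma adjusted p = 0.209). ORC5 was at 5.62 and 8.53 TPM in the shGLUD1 libraries, against 5.17 and 5.26 TPM in the shNT libraries (log2 fold change 0.35, 95% interval -0.17 to 0.87, limma adjusted p = 0.206). In each the lowest shGLUD1 value lay close to the highest shNT value. Without shGLUD1 replicate 1, ORC5 passed (0.62, limma adjusted p = 0.0372). Rescaled, the 3 lay below the median gene, at -0.45, -0.34 and -0.30, and ORC3 was called lower (limma adjusted p = 0.0256), a call kept only when shNT replicate 2 was the library left out (-0.55, limma adjusted p = 0.0366) and lost with each of the others (limma adjusted p = 0.0816 to 0.163). The ORC1 to ORC3 ratio within a library, which no scaling between libraries can change, was 0.401 and 0.393 in the shGLUD1 libraries, against 0.0757 and 0.101 in the shNT libraries. ORC1 was thus scarcer than ORC3 in every library, and the gap was narrower in shGLUD1. ORC1 had the largest and ORC3 the smallest log2 fold change of ORC, so the direction of this ratio follows from the choice of pair.

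All 6 subunits of the MCM ring rose, on TPM and after rescaling, where 56.7% and 23.2% of all genes tested were called higher. Their summed level was 276 and 332 TPM in the shGLUD1 libraries, against 126 and 112 TPM in the shNT libraries. Log2 fold changes ran from 1.14 for MCM2 to 1.77 for MCM3 (rescaled, 0.40 to 1.06, the highest in MCM6). MCM3 was at 32.3 and 41.6 TPM in the shGLUD1 libraries, against 12 and 8.36 TPM in the shNT libraries (log2 fold change 1.77, SE 0.20, limma adjusted p = 3.89e-05, rescaled 1.05). MCM6 was at 10.2 and 14.2 TPM in the shGLUD1 libraries, against 2.7 and 3.33 TPM in the shNT libraries (log2 fold change 1.71, SE 0.23, limma adjusted p = 0.00013, rescaled 1.06). MCM2, the subunit that also binds histones, was at 42.9 and 50.8 TPM in the shGLUD1 libraries, against 21.6 and 19.8 TPM in the shNT libraries (log2 fold change 1.14, SE 0.14, limma adjusted p = 8.18e-05, rescaled 0.40). In these 3 subunits the groups lay well apart. MCM4, a catalytic subunit, was at 23.3 and 35.5 TPM in the shGLUD1 libraries, against 9.02 and 9.32 TPM in the shNT libraries (log2 fold change 1.55, rescaled 0.84). MCM5, which forms the gate of the ring with MCM2, was at 56.2 and 62.6 TPM in the shGLUD1 libraries, against 23.9 and 22.2 TPM in the shNT libraries (log2 fold change 1.33, rescaled 0.59). MCM7 was at 111 and 127 TPM in the shGLUD1 libraries, against 56.6 and 48.5 TPM in the shNT libraries (log2 fold change 1.16, rescaled 0.41). After rescaling, MCM2 and MCM7 each kept the call in 1 of 4 fits with a library left out, and the other 4 subunits in all 4. The subunits of this equimolar ring were unequal in TPM, a level per transcript length, in the same order of MCM7, MCM5, MCM2, then MCM3 or MCM4, then MCM6, in all libraries. MCM7 made up 40.1% and 38.3% of the ring's TPM in the shGLUD1 libraries, against 45.0% and 43.5% in the shNT libraries, and MCM6 made up 3.71% and 4.28% in the shGLUD1 libraries, against 2.15% and 2.98% in the shNT libraries. MCM3 stood above MCM4 in both shGLUD1 libraries and in shNT replicate 1, and below it in shNT replicate 2.

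Among the factors that activate the ring the calls were mixed. In all, 11 of the 13 helicase genes rose and none fell (rescaled, 9 higher and none lower). Over all genes tested 56.7% were called higher on TPM, and 23.2% after rescaling. GINS1, a subunit of the GINS tetramer, was at 4.61 and 5.52 TPM in the shGLUD1 libraries, against 0.85 and 1.06 TPM in the shNT libraries (log2 fold change 1.63, SE 0.24, limma adjusted p = 0.000233, rescaled 1.12). GINS2 rose to 19.2 and 19 TPM in the shGLUD1 libraries, against 7.82 and 7.27 TPM in the shNT libraries (log2 fold change 1.24, rescaled 0.53). Their partners did not pass. GINS3 was at 8.36 and 9.48 TPM in the shGLUD1 libraries, against 6.48 and 5.76 TPM in the shNT libraries (log2 fold change 0.48, 95% interval 0.03 to 0.92, limma adjusted p = 0.0573), and passed with a pseudocount of 0.1 (limma adjusted p = 0.0484) and without a variance trend (0.0405). GINS4 was at 20 and 23.6 TPM in the shGLUD1 libraries, against 18.1 and 14.5 TPM in the shNT libraries (log2 fold change 0.40, 95% interval 0.03 to 0.78, limma adjusted p = 0.0582), and passed when genes below a mean of 5 TPM were left out (limma adjusted p = 0.0486). An antisense gene, AC009630.2, covers 21.2% of the GINS4 exon bases, and the strand setting of the counting is not known here. The call thus differed within GINS, and the GINS1 to GINS4 ratio was 0.23 and 0.234 in the shGLUD1 libraries, against 0.0469 and 0.0731 in the shNT libraries. CDC45, which links MCM to GINS, was at 16.1 and 21.1 TPM in the shGLUD1 libraries, against 12.4 and 11.4 TPM in the shNT libraries (log2 fold change 0.59, SE 0.18, limma adjusted p = 0.0149, rescaled -0.13). Its call was lost without shGLUD1 replicate 2 (limma adjusted p = 0.0814), shNT replicate 1 (0.055) or shNT replicate 2 (0.106). CDC7, the kinase that phosphorylates MCM, was low, at 1.51 and 2.13 TPM in the shGLUD1 libraries, against 0.78 and 0.26 TPM in the shNT libraries (log2 fold change 0.90, SE 0.28, limma adjusted p = 0.0141, rescaled 0.53). It did not pass after rescaling, without shGLUD1 replicate 2 (limma adjusted p = 0.0768) or without shNT replicate 2 (0.151). MCM10, an activator of the helicase, was also low, at 2.22 and 3.07 TPM in the shGLUD1 libraries, against 0.64 and 0.33 TPM in the shNT libraries (log2 fold change 1.29, SE 0.26, limma adjusted p = 0.00152, rescaled 0.89).

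**Figure D3:**
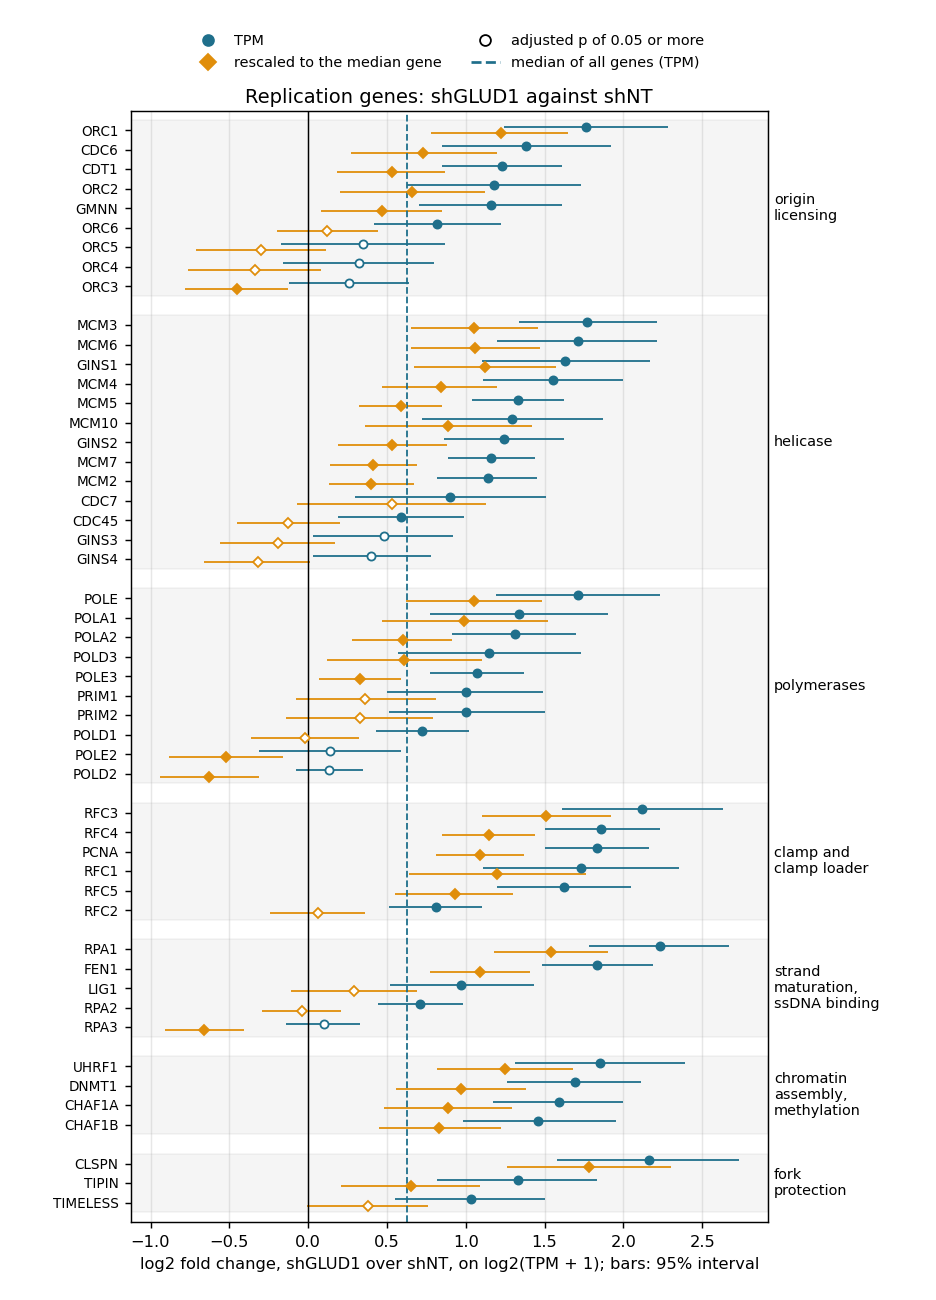
Log2 fold changes of the 50 members (shGLUD1 over shNT, on log2(TPM + 1)) with 95% intervals from limma, on TPM (circles) and rescaled to the median gene (diamonds); open symbols have an adjusted p of 0.05 or more, and the dashed line marks the median of all genes on TPM, 0.63. All 6 clamp and clamp loader genes and all 4 chromatin assembly and methylation genes lie right of that line, while ORC3, ORC4, ORC5, GINS3, GINS4, POLE2, POLD2 and RPA3 lie left of it and are open on TPM.

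Of the 10 polymerase genes 8 rose, none fell and 2 did not pass (rescaled, 5 higher and 2 lower). Their median log2 fold change was 1.04. Among all genes tested 56.7% were higher, and after rescaling 23.2% were higher and 27.9% lower. The catalytic subunit of polymerase epsilon, which copies the leading strand, had the largest log2 fold change of the 10 on log2(TPM + 1). With a pseudocount of 0.1 POLA1 stood above POLE (2.685 against 1.943). POLE was at 11.2 and 16.3 TPM in the shGLUD1 libraries, against 3.91 and 3.02 TPM in the shNT libraries (log2 fold change 1.71, SE 0.23, limma adjusted p = 0.000143, rescaled 1.05). Its partner POLE2 did not pass, at 6.73 and 7.7 TPM in the shGLUD1 libraries, against 6.5 and 6.38 TPM in the shNT libraries (log2 fold change 0.14, 95% interval -0.31 to 0.59, limma adjusted p = 0.562). Rescaled, POLE2 was lower (-0.52, limma adjusted p = 0.0226), a call lost with any library left out. The POLE to POLE2 ratio stood above 1 in the shGLUD1 libraries (1.66 and 2.11) and below 1 in the shNT libraries (0.602 and 0.473). POLE3, a histone-fold subunit, was at 50.4 and 60.4 TPM in the shGLUD1 libraries, against 26.1 and 25.4 TPM in the shNT libraries (log2 fold change 1.07, rescaled 0.33), and its rescaled call was lost with any library left out. Polymerase alpha and primase lay down the RNA-DNA primers, and all 4 of their subunits rose. POLA1, the catalytic subunit, was low, at 1.91 and 2.51 TPM in the shGLUD1 libraries, against 0.17 and 0.37 TPM in the shNT libraries (log2 fold change 1.34, SE 0.26, limma adjusted p = 0.00108, rescaled 0.99). POLA2 was at 19.6 and 25.2 TPM in the shGLUD1 libraries, against 8.55 and 8.27 TPM in the shNT libraries (log2 fold change 1.31, SE 0.18, limma adjusted p = 0.000149, rescaled 0.60). PRIM1, the catalytic primase subunit, was at 7.86 and 7.73 TPM in the shGLUD1 libraries, against 3.94 and 2.92 TPM in the shNT libraries (log2 fold change 1.00, rescaled 0.36). PRIM2, the large primase subunit, was at 11.3 and 13 TPM in the shGLUD1 libraries, against 6.88 and 4.45 TPM in the shNT libraries (log2 fold change 1.00, rescaled 0.33). Neither passed after rescaling, and both TPM calls were lost without shNT replicate 2 (limma adjusted p = 0.0541 and 0.0527).

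Polymerase delta copies the lagging strand, and POLD2 is its regulatory subunit. POLD2 was at 247 and 225 TPM in the shGLUD1 libraries, against 209 and 221 TPM in the shNT libraries (log2 fold change 0.13, 95% interval -0.08 to 0.35, limma adjusted p = 0.248). It had the highest TPM of all 50 members in every library, and the higher shNT value lay just below the lower shGLUD1 value. Rescaled, POLD2 was lower (-0.63, limma adjusted p = 0.00611), with every library left out in turn as well, and with trends in transcript length and GC content removed it was called higher (0.31, limma adjusted p = 0.0248), so its direction depends on the scaling. POLD1, the catalytic subunit, was at 56.5 and 50.8 TPM in the shGLUD1 libraries, against 34.2 and 30 TPM in the shNT libraries (log2 fold change 0.72, SE 0.13, limma adjusted p = 0.000828, rescaled -0.02). Its rescaled value was thus at the median gene. POLD3, an accessory subunit, was at 3.46 and 5.46 TPM in the shGLUD1 libraries, against 1.56 and 1.29 TPM in the shNT libraries (log2 fold change 1.15, SE 0.26, limma adjusted p = 0.00315, rescaled 0.61), and its rescaled call was lost with any library left out.

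Transcripts of the clamp and its loader were higher throughout. All 6 genes rose, 5 of them also after rescaling, where 56.7% and 23.2% of all genes tested were called higher. The median log2 fold change of the 6 was 1.78. PCNA, the sliding clamp that tethers polymerases and recruits FEN1 and LIG1, was at 62.3 and 79.2 TPM in the shGLUD1 libraries, against 20 and 18.1 TPM in the shNT libraries (log2 fold change 1.83, SE 0.15, limma adjusted p = 7.12e-06, rescaled 1.09). RFC3, a small subunit of the clamp loader, was at 9.93 and 13.1 TPM in the shGLUD1 libraries, against 1.7 and 2.02 TPM in the shNT libraries (log2 fold change 2.12, SE 0.23, limma adjusted p = 3.74e-05, rescaled 1.51). RFC4 was at 30.4 and 37 TPM in the shGLUD1 libraries, against 8.34 and 8.62 TPM in the shNT libraries (log2 fold change 1.86, SE 0.17, limma adjusted p = 1.26e-05, rescaled 1.15). RFC1, the large subunit, was at 4.66 and 7.42 TPM in the shGLUD1 libraries, against 0.78 and 1.43 TPM in the shNT libraries (log2 fold change 1.73, SE 0.28, limma adjusted p = 0.000397, rescaled 1.20). In each of these the lower shGLUD1 value was more than 2 times the higher shNT value. RFC5 was at 20.5 and 23.9 TPM in the shGLUD1 libraries, against 7.44 and 5.66 TPM in the shNT libraries (log2 fold change 1.62, SE 0.19, limma adjusted p = 5.66e-05, rescaled 0.93). RFC2 was the most abundant of the loader in every library and rose least, at 50.8 and 53.3 TPM in the shGLUD1 libraries, against 31.9 and 27 TPM in the shNT libraries (log2 fold change 0.81, SE 0.13, limma adjusted p = 0.000468, rescaled 0.06). After rescaling RFC2 stood at the median gene. RFC2 made up 43.7% and 39.6% of the loader's TPM in the shGLUD1 libraries, against 63.6% and 60.3% in the shNT libraries. The RFC3 to RFC2 ratio was 0.195 and 0.245 in the shGLUD1 libraries, against 0.0533 and 0.0749 in the shNT libraries.

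Among the 5 genes that mature the lagging strand or coat single-stranded DNA, 4 rose and 1 did not pass (rescaled, 2 higher and 1 lower). These small counts stand beside 56.7% of all genes tested higher on TPM, and 23.2% higher and 27.9% lower after rescaling. FEN1, the nuclease that trims Okazaki fragment flaps, was at 69.5 and 91.8 TPM in the shGLUD1 libraries, against 23.9 and 19.7 TPM in the shNT libraries (log2 fold change 1.83, SE 0.16, limma adjusted p = 1.15e-05, rescaled 1.09). LIG1, the ligase that seals the fragments, was at 11.6 and 13.4 TPM in the shGLUD1 libraries, against 6.75 and 5.06 TPM in the shNT libraries (log2 fold change 0.97, SE 0.21, limma adjusted p = 0.00206, rescaled 0.29). Replication protein A is a trimer, and its subunits spanned log2 fold changes from 0.10 to 2.23. RPA1, the large DNA-binding subunit (chromosome 17, 1829702 to 1900082, plus strand, in hg38), was at 21.7 and 29.2 TPM in the shGLUD1 libraries, against 4.98 and 4.24 TPM in the shNT libraries (log2 fold change 2.23, SE 0.20, limma adjusted p = 1.39e-05, rescaled 1.54). RPA2 was at 64.2 and 73.3 TPM in the shGLUD1 libraries, against 42.4 and 40.7 TPM in the shNT libraries (log2 fold change 0.71, SE 0.12, limma adjusted p = 0.000596, rescaled -0.04). RPA3, the smallest subunit, did not pass, at 108 and 118 TPM in the shGLUD1 libraries, against 104 and 108 TPM in the shNT libraries (log2 fold change 0.10, 95% interval -0.14 to 0.33, limma adjusted p = 0.436). Rescaled, RPA3 was lower (-0.66, limma adjusted p = 0.00156), also with each library left out. RPA1 was the scarcest of the trimer in every library, and the RPA1 to RPA3 ratio was 0.2 and 0.248 in the shGLUD1 libraries, against 0.0481 and 0.0394 in the shNT libraries. A ratio within a library shows unequal change and does not say which partner moved. Here and in the other pairs the larger log2 fold change was set over the smaller. The direction of these ratios is therefore not a separate result.

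**Figure D4:**
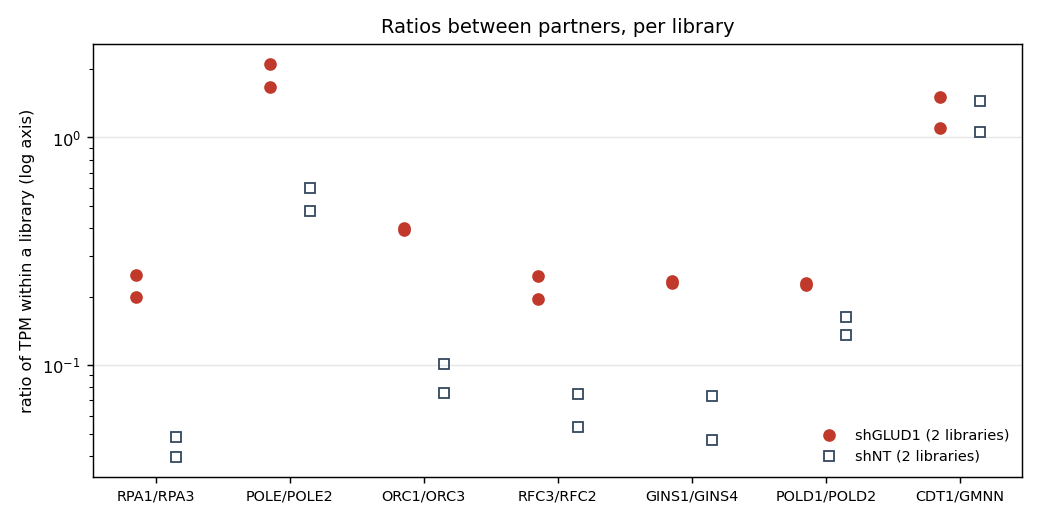
Ratio of TPM between partners within each library, on a log axis; circles are the 2 shGLUD1 libraries and squares the 2 shNT libraries. The ratio does not depend on scaling between libraries. In each pair the member with the larger log2 fold change is set over the other. Higher ratios in shGLUD1 thus follow from the choice of pairs. RPA1/RPA3, POLE/POLE2, ORC1/ORC3, RFC3/RFC2, GINS1/GINS4 and POLD1/POLD2 are higher in both shGLUD1 libraries than in both shNT libraries, and CDT1/GMNN overlaps between the groups.

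Transcripts of the genes for chromatin assembly and maintenance methylation were higher. Over all genes tested, 56.7% were called higher on TPM and 23.2% after rescaling. All 4 genes were called higher on TPM and after rescaling, and remained so with each library left out on both scales. CHAF1A, the large subunit of the histone chaperone CAF-1 that deposits H3 and H4 behind the fork, was at 22.7 and 22.4 TPM in the shGLUD1 libraries, against 7.96 and 5.85 TPM in the shNT libraries (log2 fold change 1.59, SE 0.19, limma adjusted p = 5.84e-05, rescaled 0.89). CHAF1B, the middle subunit, was at 8.69 and 10.5 TPM in the shGLUD1 libraries, against 2.89 and 2.75 TPM in the shNT libraries (log2 fold change 1.46, SE 0.22, limma adjusted p = 0.000235, rescaled 0.83). UHRF1, which reads hemimethylated DNA, was at 7.49 and 10.7 TPM in the shGLUD1 libraries, against 1.67 and 1.88 TPM in the shNT libraries (log2 fold change 1.85, SE 0.24, limma adjusted p = 0.000112, rescaled 1.25). DNMT1, the maintenance methyltransferase that UHRF1 recruits, was at 29 and 34.1 TPM in the shGLUD1 libraries, against 11 and 7.5 TPM in the shNT libraries (log2 fold change 1.69, SE 0.19, limma adjusted p = 4.87e-05, rescaled 0.97). In all 4 the lower shGLUD1 value was more than 2 times the higher shNT value.

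The fork protection genes rose, 3 of 3 on TPM and 2 of 3 after rescaling, where 56.7% and 23.2% of all genes tested were called higher. CLSPN (chromosome 1, 35720218 to 35769967, minus strand, in hg38) encodes claspin, the adaptor through which ATR activates CHEK1, and had the largest rescaled change of all members. It was at 3.74 and 5.11 TPM in the shGLUD1 libraries, against 0.1 and 0.32 TPM in the shNT libraries (log2 fold change 2.16, SE 0.26, limma adjusted p = 6.46e-05, rescaled 1.78). With shNT values this low and unequal, the size of its change depends on the pseudocount and on each shNT library, and no ratio of TPM is given. TIPIN was at 12.1 and 16.4 TPM in the shGLUD1 libraries, against 4.17 and 5.99 TPM in the shNT libraries (log2 fold change 1.33, SE 0.23, limma adjusted p = 0.000564, rescaled 0.65). The pseudogene RPL9P25, at most 1.03 TPM, covers 21.0% of the TIPIN exon bases. TIMELESS, the partner of TIPIN at the fork, was at 8.22 and 9.91 TPM in the shGLUD1 libraries, against 4.26 and 3.61 TPM in the shNT libraries (log2 fold change 1.03, SE 0.22, limma adjusted p = 0.00195, rescaled 0.38), and did not pass after rescaling.

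The members' changes can be set beside their level and length. Across the 50 members, the Spearman correlation of the log2 fold change with the shNT level was -0.39, and with transcript length 0.29 (49 members with a length), as a description of genes that share the same libraries. Over all genes tested the values were -0.36 and 0.39. The shNT values are also part of the fold change, so a negative correlation with the shNT level can arise from their spread alone. GC content gave 0.04 in the members, against -0.2 over all genes. With trends in length and GC removed from each library, 7433 of 12258 genes were higher and 702 lower. In the same fit 42 of the 49 members with a length were higher and none lower. Their median was 1.14, against 0.64 over all genes. Of these 42 members, 41 were also higher without the removal and 1, POLD2, was gained, while UHRF1 had no length and no such fit. The part of expression level and RNA quality in single members was not tested.

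Other replication genes, which are not among the 50, were mostly higher as well. Of 47 such genes, 42 passed the filter on low values, and 33 of them rose, 2 fell and 7 did not pass, where 56.7% of all genes tested were higher and 7.77% lower. After rescaling 21 were higher and 5 lower, where 23.2% and 27.9% of all genes tested were. The median log2 fold change of the 42 was 1.19. Without shGLUD1 replicate 2, the rescaled count higher was smaller, and so was that over all genes tested. The largest rise was in NASP, a histone chaperone, at 70.8 and 102 TPM in the shGLUD1 libraries, against 14.7 and 13.5 TPM in the shNT libraries, with log2 fold change 2.51, rescaled 1.78. RBBP4, the small subunit of CAF-1, was at 28.8 and 36.3 TPM in the shGLUD1 libraries, against 9.62 and 7.17 TPM in the shNT libraries (log2 fold change 1.84, SE 0.19, limma adjusted p = 2.65e-05, rescaled 1.13). It rose with CHAF1A and CHAF1B. FBXO5, an inhibitor of the anaphase-promoting complex, was at 7.66 and 9.54 TPM in the shGLUD1 libraries, against 1.7 and 2.03 TPM in the shNT libraries (log2 fold change 1.74, SE 0.23, limma adjusted p = 0.000121, rescaled 1.14). Both genes that fell encode small subunits. POLE4, the histone-fold partner of POLE3, was at 277 and 245 TPM in the shGLUD1 libraries, against 413 and 410.2 TPM in the shNT libraries (log2 fold change -0.66, SE 0.10, limma adjusted p = 0.000202, rescaled -1.42). RNASEH2C, a subunit of RNase H2, was at 159 and 137 TPM in the shGLUD1 libraries, against 190.1 and 202 TPM in the shNT libraries (log2 fold change -0.40, SE 0.11, limma adjusted p = 0.00706, rescaled -1.16), and its call was lost without shNT replicate 2. TRAIP, a ubiquitin ligase that acts at forks, did not pass, at 18.8 and 14.1 TPM in the shGLUD1 libraries, against 19 and 15.6 TPM in the shNT libraries (log2 fold change -0.07, 95% interval -0.48 to 0.34, limma adjusted p = 0.741), and was lower after rescaling (-0.79, limma adjusted p = 0.0116). Picked with its values known, to complete polymerase delta, POLD4 was at 327 and 341 TPM in the shGLUD1 libraries, against 168 and 161 TPM in the shNT libraries (log2 fold change 1.01, SE 0.09, limma adjusted p = 1.52e-05, rescaled 0.25), and did not pass after rescaling.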

How the data were processed

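Total RNA (1 µg a sample) was made into libraries with a TruSeq V2 kit, per the labels' protocols. The authors deposited 1 table of TPM, 1 column a library, unpooled. All columns have the same total, and no further scaling across them was found. Bowtie 0.12.2, hg38 and mm8 are listed in the submitters' processing notes, with no roles. The quantifier, annotation, filters and strand setting were not given in the sources used here. Because TPM hold no read totals, depth is unknown and counting intervals or floors cannot be given; genes above 0 numbered 20137 and 20489 in the shGLUD1 libraries and 19724 and 19958 in the shNT libraries.

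Values were analysed as log2(TPM + 1) where the mean over libraries reached 1 TPM. shGLUD1 and shNT (2 libraries each, grouped by sample titles) were compared over all genes with limma 3.58.1 in R 4.3.3 (variance trend, group as the only term, two-sided, Benjamini-Hochberg adjustment over 12524 genes, threshold 0.05). Limma borrows spread across genes (a median of 10.8 total degrees of freedom). An exact permutation test of 2 against 2 libraries cannot give a two-sided p below 0.333. In simulated data with 12524 genes, 98% of genes changed 2-fold and 100% of genes changed 4-fold were recovered. The simulation gave every gene the same spread, changed few genes and shifted no median. In the data, genes differed in spread and most were called, so these rates do not carry over to the low members. Alternatives were a pseudocount of 0.1, no filter, a filter at 5 TPM, median-ratio rescaling, quantile normalization, no variance trend, each library left out, a block for replicate number, and removal of loess trends with transcript length and GC content (GENCODE 29, covering 97.9% of genes tested). Leaving out each library after rescaling was added after seeing the data. The members, role groups and lists were chosen with earlier results of these data known. By rule, values per library are given for the members with the 2 largest and 2 smallest changes in each role, those that were lower or did not pass, those whose rescaled value changed sign, the 3 largest and 3 smallest changes among the other replication genes, and GLUD1. The other members' values and POLD4 were added. PECAM1 was not used. Python 3.11.15 with pandas 2.3.3 and matplotlib 3.10.9 made the tables and figures.

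Of 49 members with an annotation in GENCODE 29, 16 share exon bases with a gene on the opposite strand and 7 with one on the same strand, at most 21.2% of a member's exons (GINS4). The split of reads between such genes is uncertain. Of 9 pseudogenes named after members, 1 was above 0 in any library.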

Additional observations from a re-analysis of the deposited data

How the results depend on the processing

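With all libraries, the members called higher numbered 29 to 43 of 50 under the alternatives (34 with a filter at 5 TPM, which fewer members passed). None was called lower except after median-ratio rescaling (4) and quantile normalization (2). With each library left out, 38 to 43 were higher on TPM, and 22 to 29 higher and 2 to 3 lower after rescaling; a lone library left in a group was assumed to vary like the other group. On TPM, CDC7, CDC45, PRIM1 and PRIM2 lost and ORC5 gained a call in at least 1 of these fits. Calls over all genes moved with scaling, from 7105 higher and 973 lower to 2910 and 3491 (median-ratio rescaling) or 2938 and 2764 (quantile normalization), and 4676 were higher at a mean of at least 5 TPM. Leaving out each library after rescaling gave 1657 to 2392 genes higher, the fewest without shGLUD1 replicate 2. For the other replication genes, rescaling gave 21 higher and 5 lower, 13 to 20 and 2 to 5 with each library left out; 5 were lower under quantile normalization, and 1 without a filter, without a variance trend or, over the fits that left out a library (1 to 2), without shNT replicate 2. Leaving out each library gave GLUD1 log2 fold changes of -0.37 to 0.15 (above 0 without shGLUD1 replicate 1). They were -0.83 (median-ratio) or -0.75 (quantile) once rescaled, passing in both. Rescaling sets the median gene to no change, so it turned the sign of 11 members. These were ORC3 (-0.45), ORC4 (-0.34), ORC5 (-0.30), CDC45 (-0.13), GINS3 (-0.19), GINS4 (-0.32), POLD1 (-0.021), POLD2 (-0.63), POLE2 (-0.52), RPA2 (-0.039) and RPA3 (-0.66). Quantile normalization turned 8: ORC3 (-0.42), ORC4 (-0.45), ORC5 (-0.42), CDC45 (-0.079), GINS3 (-0.29), GINS4 (-0.22), POLE2 (-0.63) and RPA3 (-0.19). Another 7 members lost their call after median-ratio rescaling and 12 under quantile normalization. Without a filter on low values CDC7 and CDC45 lost their calls (limma adjusted p = 0.0779 and 0.0702). The replicate number as a block gave 43 members higher (GINS4 gained, limma adjusted p = 0.0423) and none lower, and 7395 and 1061 genes over all; the labels do not say that numbers pair the libraries, and the differences between replicates 1 and 2 correlated by 0.039 across genes between the groups. Unknown depth limits what can be said of the lowest members, CLSPN, POLA1, MCM10 and CDC7.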

Other observations

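Of the 49 members annotated in GENCODE 29, 14 have a protein-coding neighbour that starts within 1000 bases on the opposite strand. These neighbours were named after their values were seen, and their values are given without explanation. Some differed from the member beside them. Next to MCM2, which rose, TPRA1 was at 64.8 and 63.8 TPM in the shGLUD1 libraries, against 78.4 and 83.5 TPM in the shNT libraries (log2 fold change -0.33, limma adjusted p = 0.0234, rescaled -1.08). Next to FEN1, which rose, TMEM258 was at 328 and 314 TPM in the shGLUD1 libraries, against 387 and 386 TPM in the shNT libraries (log2 fold change -0.27, limma adjusted p = 0.0203, rescaled -1.03). Next to POLE, which rose, PXMP2 was at 48.2 and 44.2 TPM in the shGLUD1 libraries, against 56.1 and 47.9 TPM in the shNT libraries (log2 fold change -0.17, limma adjusted p = 0.279, rescaled -0.91). MCM2 and TPRA1 share 45 exon bases and FEN1 and TMEM258 share 166 on opposite strands, and the use of strand in counting is not given in the sources used here.

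Elsewhere the neighbour had the larger log2 fold change. Next to ORC6 (log2 fold change 0.82), VPS35 was at 22.6 and 28.1 TPM in the shGLUD1 libraries, against 2.55 and 3.75 TPM in the shNT libraries (log2 fold change 2.67, limma adjusted p = 6.84e-06, rescaled 2.01); VPS35 encodes a subunit of the retromer. Next to ORC3, which did not pass, RARS2 was at 17.7 and 22.4 TPM in the shGLUD1 libraries, against 10.6 and 11.9 TPM in the shNT libraries (log2 fold change 0.78, limma adjusted p = 0.00303, rescaled 0.06); RARS2 encodes the mitochondrial arginyl-tRNA synthetase. Next to MCM4 (1.55), PRKDC was at 29.1 and 36.7 TPM in the shGLUD1 libraries, against 6.12 and 8.11 TPM in the shNT libraries (log2 fold change 2.07, limma adjusted p = 1.51e-05, rescaled 1.36); PRKDC encodes the catalytic subunit of DNA-dependent protein kinase. Other pairs had similar log2 fold changes, such as TIPIN (1.33) and the kinase gene MAP2K1 (1.26). The difference within each pair was not tested.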
